A study of Mus musculus with 6 samples.

Results

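The genes followed here in leg muscle of mouse fetuses were 10 muscle splicing regulators: *Rbfox1*, *Rbm20*, *Rbm24*, *Rbm38*, *Mbnl1*, *Mbnl2*, *Mbnl3*, *Celf1*, *Celf2* and *Ptbp1*. They were chosen by name, and their rows were found in the table of gene counts by Ensembl identifier. All 10 were present among the 56262 genes listed, and all 10 were among the 22071 genes with enough counts to be tested. RNA-seq was performed on leg muscle at embryonic day 18.5 from 3 wild-type (WT) and 3 *SYISL* knockout (KO) samples. *SYISL*, a long noncoding RNA encoded within an intron of *Synpo2*, is known as a suppressor of muscle growth, and the KO fetuses lack it. The WT mice came from an animal centre and the KO mice from a line made earlier, and both groups came from matings within a genotype. The fetuses and their mothers therefore shared a genotype. The paper also reports that the gut microbiota of WT and KO mothers differed. The effects of fetal genotype, maternal genotype, maternal gut microbiota, source of the mice and litter cannot be told apart. The sources do not say whether a sample was 1 fetus or a pool, nor which fetuses shared a litter, so p-values measure only the spread between these samples, which may be technical.

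Splicing regulators of this kind are RNA-binding proteins that recognise short motifs in and beside alternative exons and favour or block their inclusion. During muscle development, MBNL and RBFOX proteins promote adult exon choices, CELF proteins maintain fetal ones, and PTBP1 represses many exons outside muscle and nerve. RBM24 and RBM38 also bind mature mRNAs and change their stability, and RBM20 acts mainly on the titin transcript of striated muscle. Counts per gene show how much RNA of each regulator was present. They do not show which exons were used, nor how much protein was made.

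In KO muscle 6 of the 10 regulators rose, 2 fell and 2 did not pass the test. *Rbm38* and *Rbfox1* rose most, to 1.70 and 1.64 times the WT level. *Rbm20*, *Rbm24*, *Mbnl2* and *Mbnl1* rose by smaller factors, between 1.26 and 1.35. *Mbnl3* fell to 0.737 and *Ptbp1* to 0.824 of the WT level, and *Celf1* and *Celf2* stayed within 1.06-fold. The test was the edgeR quasi-likelihood test with Benjamini-Hochberg adjustment over all genes tested, and a gene passed at an adjusted p under 0.05. Over all 22071 genes, 21.9% passed as higher and 23.1% as lower. Genes that passed and also changed by more than 1.5-fold are called DEGs here, a rule met in the higher direction by 8.31% of genes tested and in the lower direction by 8.39%. *Rbm38* and *Rbfox1* were higher DEGs and none of the 10 was a lower DEG by edgeR, DESeq2 or limma-voom. *Mbnl3* and *Ptbp1* made 2 genes lower at an unadjusted p under 0.05. The share of all genes at an unadjusted p was not counted here or below. The KO and WT samples did not overlap for 9 of the 10 regulators, against 55.9% of all genes tested. The median log2 fold change (KO over WT) was 0.36 over the 10 regulators and -0.0041 over all genes tested. The 10 were named with results of these data known, so these shares are a description.

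**Figure D1:**
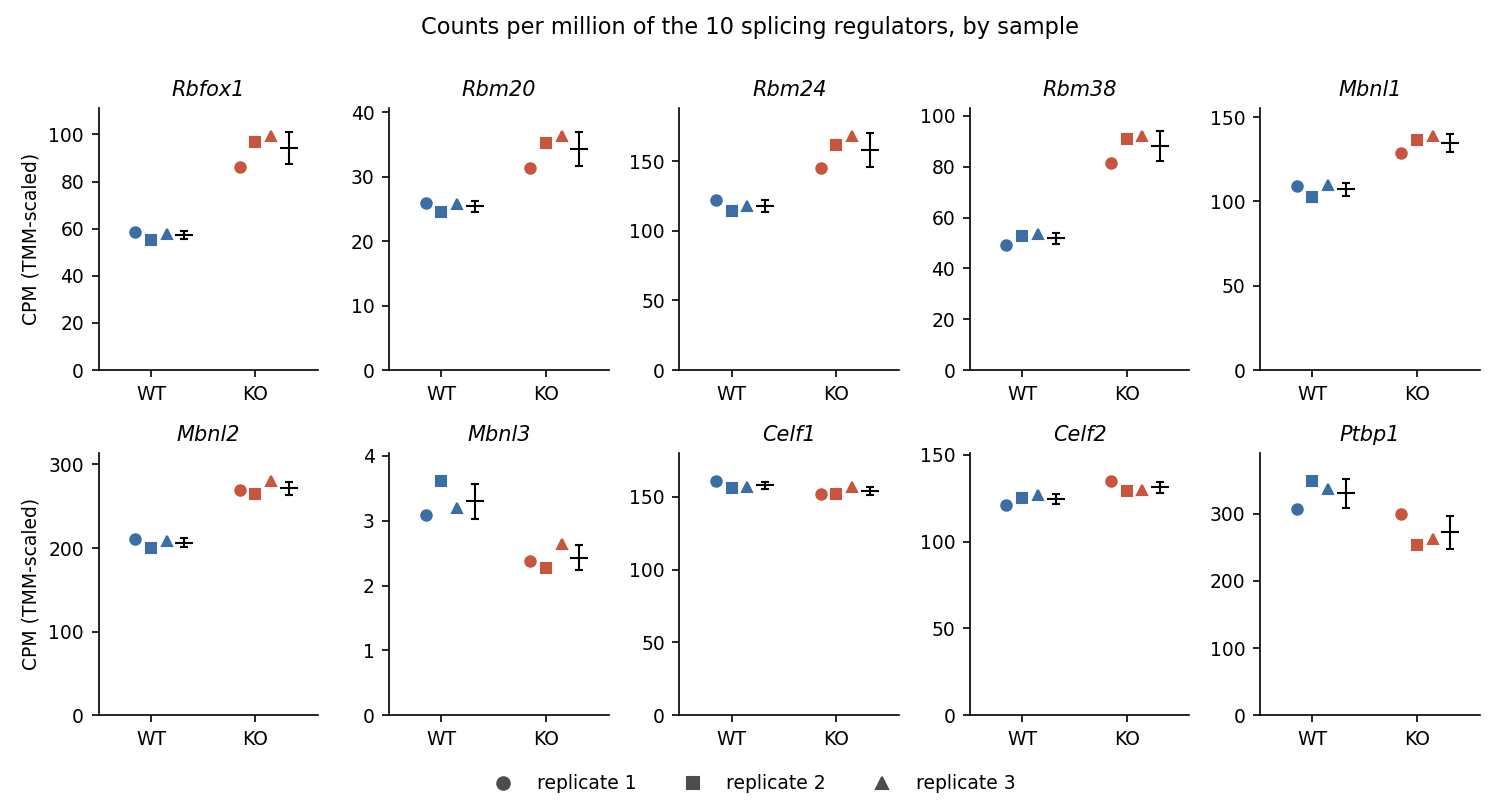
CPM (counts of a gene relative to the TMM-scaled total of its library, vertical axes from 0) of each regulator in the 3 WT samples (blue) and the 3 KO samples (red), with a marker shape for each replicate number and the mean ± SD in black. *Rbfox1* lies between 55.3 and 58.7 CPM in WT and between 86.3 and 99.2 CPM in KO, whereas the *Celf1* samples of the groups overlap.

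The libraries held 82054811 to 102233181 counts each. The least counted was *Mbnl3*, with 216 to 338 counts per sample, and the most counted was *Ptbp1*, with 24242 to 35645. *Synpo2*, the host gene of the deleted RNA, rose in KO with a log2 fold change of 0.66 ± 0.06 (SE). The annotation lists no gene under the name *SYISL*, and its deletion was not checked here. Marker genes of muscle fibres and of other cells also differed between groups. All 10 markers of muscle fibres were higher DEGs, with a summed level of 11356 to 12326 CPM in WT and 24577 to 31304 CPM in KO. All 8 epidermal markers were lower DEGs, with a summed level of 14960 to 22283 CPM in WT and 643 to 724 CPM in KO. Of 6 red blood cell markers 5 fell, and their sum went from 1422 to 1732 CPM in WT to 208 to 235 CPM in KO. All 6 macrophage markers passed as higher and 5 of 6 proliferation markers as lower. The part of these differences in the results below was not tested, and in bulk tissue fewer cells of a type and less RNA per cell cannot be told apart.

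The RefSeq promoters of *Rbfox1*, *Rbm38* and *Ptbp1* are shown because these genes include the largest rises and the most abundant regulator, which fell. Each window runs from 250 bases before to 50 bases after an annotated start, on the plus strand of GRCm38.p6, the assembly of the counts. Capitals mark every CANNTG, the E-box core that myogenic factors such as MyoD are known to bind. CANNTG and CAGCTG read alike on both strands, and CAGCTG is 1 form of CANNTG. Start sites of *Rbfox1* lie far apart, at chr16:5884543-5884842 for the upstream window and chr16:7069585-7069884 for the downstream one. The window of *Rbm38* is chr2:173021652-173021951 and that of *Ptbp1* is chr10:79854182-79854481.
Rbfox1 upstream start: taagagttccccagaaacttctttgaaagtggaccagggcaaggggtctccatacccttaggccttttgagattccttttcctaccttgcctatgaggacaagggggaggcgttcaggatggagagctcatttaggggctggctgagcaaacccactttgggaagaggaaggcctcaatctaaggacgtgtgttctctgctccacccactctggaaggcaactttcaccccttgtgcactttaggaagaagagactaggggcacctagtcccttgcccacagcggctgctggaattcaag
Rbfox1 downstream start: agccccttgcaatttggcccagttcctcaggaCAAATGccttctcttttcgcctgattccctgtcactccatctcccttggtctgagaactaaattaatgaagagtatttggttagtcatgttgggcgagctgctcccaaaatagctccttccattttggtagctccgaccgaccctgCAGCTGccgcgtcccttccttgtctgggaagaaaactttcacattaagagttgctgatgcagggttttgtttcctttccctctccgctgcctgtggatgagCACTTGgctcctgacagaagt
Rbm38: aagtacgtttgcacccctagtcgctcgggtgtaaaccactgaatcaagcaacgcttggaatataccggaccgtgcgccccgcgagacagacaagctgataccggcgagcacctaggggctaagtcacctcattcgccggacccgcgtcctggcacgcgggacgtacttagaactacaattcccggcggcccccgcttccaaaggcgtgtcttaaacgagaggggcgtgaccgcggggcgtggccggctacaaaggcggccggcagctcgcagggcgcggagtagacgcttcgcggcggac
Ptbp1: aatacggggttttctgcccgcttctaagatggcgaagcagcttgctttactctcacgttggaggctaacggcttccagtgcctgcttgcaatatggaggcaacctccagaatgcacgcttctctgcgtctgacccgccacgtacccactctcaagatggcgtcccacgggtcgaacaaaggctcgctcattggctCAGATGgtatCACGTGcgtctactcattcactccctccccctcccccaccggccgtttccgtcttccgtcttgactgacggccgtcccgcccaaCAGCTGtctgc

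The downstream *Rbfox1* window held 3 CANNTG matches, 1 of them CAGCTG with its first base 72 bases before the start. The *Ptbp1* window also held 3, with CAGCTG beginning at base 40 after the start. Neither the upstream *Rbfox1* window nor that of *Rbm38* held a match. Over the 9 regulators found in the promoter table, 9 of 15 windows held CANNTG and 2 held CAGCTG. The windows are not independent, since several belong to *Celf2*. Its windows chr2:7395951-7396250 and chr2:7396149-7396448 overlap and hold the same CACTTG and CAAGTG. Over all 32851 promoters of that table, 72.3% held CANNTG and 16.3% held CAGCTG. These matches describe letters in the windows only.

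*Rbfox1* encodes an RNA-binding protein of muscle, heart and neurons that binds GCAUG elements beside alternative exons. It lies on the plus strand of chromosome 16 (mm10) from 5885355 to 7411526. Its level was 58.7, 55.3 and 57.9 CPM in the 3 WT samples and 86.3, 96.6 and 99.2 CPM in the 3 KO samples. The lowest KO sample stood well above the highest WT sample. The log2 fold change was 0.72 ± 0.05 (SE), with an adjusted p of 6.32e-06 by edgeR. Its paralogue *Rbfox2*, expressed in most tissues, was at 376 ± 5.76 CPM in WT against 381 ± 12.5 CPM in KO (SD, n = 3 per group) and did not pass the test.

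*Rbm38* encodes an RRM protein induced by p53 that binds mRNAs such as that of *Cdkn1a*, and it is the closest relative of *Rbm24*. It spans 173020498 to 173034734 of chromosome 2 on the plus strand. The WT samples had 49.1, 52.8 and 53.4 CPM and the KO samples 81.5, 90.9 and 92.0 CPM. Every KO sample exceeded every WT sample, and the log2 fold change was 0.77 ± 0.05 with an adjusted p of 4.15e-06 in edgeR. This was the largest rise of the 10, and 13.6% of all genes tested had a larger change in either direction. *Gm14453* and *Gm20490*, annotated on the opposite strand, share exon bases with it. Their own counts came to 0.561% and 0.0226% of those of *Rbm38*. The strand setting of the counting is not stated, so these shares do not show how reads in the shared bases were assigned.

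*Rbm24*, which activates many exons of sarcomere genes, rose less than *Rbm38*. It lies on chromosome 13 from 46418434 to 46431095. It had 122, 114 and 118 CPM in WT and 145, 162 and 168 CPM in KO. The groups did not overlap, and the log2 fold change was 0.42 ± 0.06 with an adjusted p of 2.95e-04 in edgeR. *Rbm20*, a repressor of titin exons best known from heart muscle, changed by nearly the same factor. It lies on chromosome 19 from 53677306 to 53867080. Its WT samples had 26.0, 24.5 and 25.7 CPM and its KO samples 31.3, 35.2 and 36.3 CPM. All KO samples were higher, with a log2 fold change of 0.43 ± 0.06 and an adjusted p of 3.36e-04 in edgeR. For *Rbfox1*, *Rbm20*, *Rbm24*, *Rbm38* and *Mbnl1*, KO replicate 1 was the lowest of the KO samples. This was also the KO sample with the lowest summed level of muscle fibre markers, 24577 CPM against 31304 and 30790 CPM in the other KO samples. It was the KO sample with 4 Y-linked genes near 0 as well, at a sum of 0.0747 CPM. WT replicate 2, with the lowest such sum in WT (0.0242 CPM), was the lowest WT sample for 6 of the 10 regulators. It also had the lowest summed level of muscle fibre markers in WT, 11356 CPM against 12326 and 12319 CPM. The part of the muscle fibre markers or of the Y-linked genes in these values was not tested.

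The 3 muscleblind genes did not change alike. *Mbnl1* and *Mbnl2* encode the proteins that drive the adult exon pattern of muscle and that are sequestered by expanded repeat RNA in myotonic dystrophy, whereas *Mbnl3* is known from proliferating myoblasts and regenerating muscle. *Mbnl1* (chromosome 3, 60472830 to 60629750) had 109, 102 and 110 CPM in WT and 128, 136 and 139 CPM in KO. *Mbnl2* (chromosome 14, 120275669 to 120431697) had 211, 201 and 208 CPM in WT and 269, 265 and 280 CPM in KO. Both genes were higher in every KO sample than in any WT sample. Their log2 fold changes were 0.33 ± 0.05 and 0.39 ± 0.04, with adjusted p of 3.07e-04 and 6.61e-05 in edgeR. *Gm26679*, on the opposite strand, shares 86 exon bases with *Mbnl2*, and its counts came to 0.00661% of those of *Mbnl2*.

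*Mbnl3* went the other way at a much lower level. It lies on the minus strand of chromosome X from 51117269 to 51206532. Its WT samples had 3.10, 3.61 and 3.20 CPM and its KO samples 2.38, 2.27 and 2.64 CPM, without overlap. The log2 fold change was -0.44 ± 0.10 with an adjusted p of 0.00571 in edgeR. Because the gene is X-linked, the summed level of 4 Y-linked genes is given beside it. That sum was 166, 0.0242 and 69.8 CPM in the WT samples and 0.0747, 64.8 and 64.2 CPM in the KO samples, so each group held 1 sample with these genes near 0. With the Y-linked share as a covariate the log2 fold change of *Mbnl3* was -0.48, with an adjusted p of 0.00349 in edgeR.

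*Ptbp1*, the polypyrimidine tract-binding protein that represses exons in many non-muscle cells and is known to decline as myoblasts differentiate, was the other regulator that fell. It lies on chromosome 10 from 79854427 to 79864771. The WT samples had 307, 348 and 338 CPM and the KO samples 300, 254 and 263 CPM. The groups did not overlap, but the lowest WT sample and the highest KO sample, both replicate 1, differed by only a few CPM. The log2 fold change was -0.28 ± 0.07 with an adjusted p of 0.0112 in edgeR, and without KO replicate 3 the adjusted p was 0.0546. Genes on the opposite strand share exon bases with *Ptbp1*, and the strand setting of the counting is not stated. Of these, *Plppr3* had counts equal to 4.34% of those of *Ptbp1*, *E130317F20Rik* 1.10% and *Gm17134* none. The nerve-enriched paralogue *Ptbp2* had 66.2 ± 2.14 CPM in WT against 65.0 ± 1.08 CPM in KO (SD, n = 3 per group) and did not pass. *Ptbp3*, known from blood cells, fell from 134 to 94.5 CPM, with a log2 fold change of -0.51.

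*Celf1* and *Celf2*, whose proteins favour fetal exon choices and oppose MBNL proteins on many transcripts, did not pass the test. *Celf1* (chromosome 2, 90940382 to 91019497) had 161, 156 and 157 CPM in WT and 152, 152 and 157 CPM in KO, and the groups overlapped. Its log2 fold change was -0.04, with a 95% interval from -0.12 to 0.044. *Celf2* (chromosome 2, 6539694 to 7509563) had 121, 125 and 127 CPM in WT and 135, 129 and 130 CPM in KO. Those samples did not overlap, yet the log2 fold change was only 0.08, with a 95% interval from -0.0080 to 0.16 and an adjusted p of 0.128 in edgeR. Both intervals lie inside the 1.5-fold threshold, which is 0.585 on the log2 scale. *Gm26565*, on the opposite strand, shares 7.58% of the exon bases of *Celf2* and had no counts listed.

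**Figure D2:**
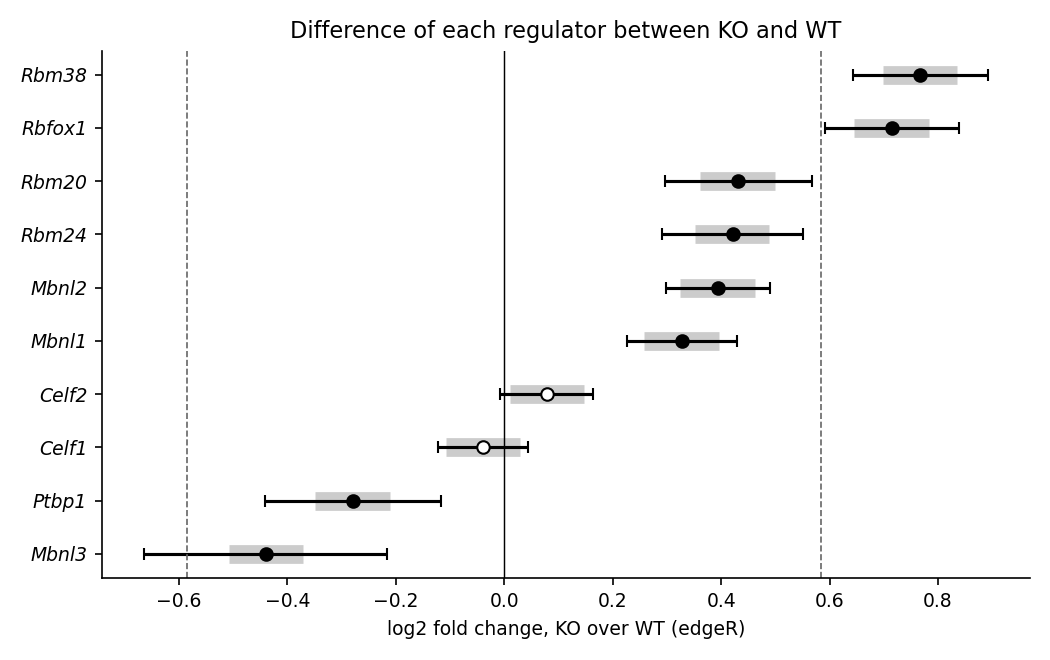
Log2 fold change (KO over WT, edgeR, horizontal axis) of each regulator as a point with its 95% interval, filled where the adjusted p was under 0.05, over a grey bar that spans the estimates under 16 other processing choices. Dashed lines mark a 1.5-fold change, and only the points of *Rbm38* (0.77) and *Rbfox1* (0.72) lie beyond them.

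To compare levels between genes, counts were divided by the summed length of annotated exons (RPKM). Expressed per length in WT, *Ptbp1* was the most abundant with 69.8 ± 4.58 RPKM (SD, n = 3), above 97.1% of all genes tested over the 6 samples. *Rbm24* followed with 33.8 ± 1.22 RPKM. *Celf1* (18.7 ± 0.274), *Rbm38* (18.0 ± 0.798) and *Mbnl2* (17.2 ± 0.451 RPKM) came next, and neighbours in this trio overlapped in their samples. *Rbfox1* (13.0 ± 0.397), *Mbnl1* (5.72 ± 0.217), *Celf2* (4.68 to 4.89), *Rbm20* (3.74 ± 0.118) and *Mbnl3* (0.378 ± 0.0308 RPKM) completed the order without overlap.

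The order differed in KO muscle. *Ptbp1* stayed first with 57.5 ± 5.15 RPKM, but *Rbm24* had come closer with 45.3 ± 3.42 RPKM. *Rbm38* was then alone at 30.7 ± 2.01 RPKM. *Mbnl2* (22.6 ± 0.631) and *Rbfox1* (21.4 ± 1.55 RPKM) overlapped, and both now stood above *Celf1* (18.2 ± 0.331 RPKM). *Celf2* and *Rbm20* overlapped, with 5.07 ± 0.117 and 5.04 ± 0.385 RPKM. *Mbnl3* stayed last with 0.278 ± 0.0220 RPKM. Summed exon length is long for *Celf2* (25884 bases) and *Mbnl1* (18717 bases), whose annotations hold many alternative exons and ends, and RPKM of such genes depends on that annotation.

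**Figure D3:**
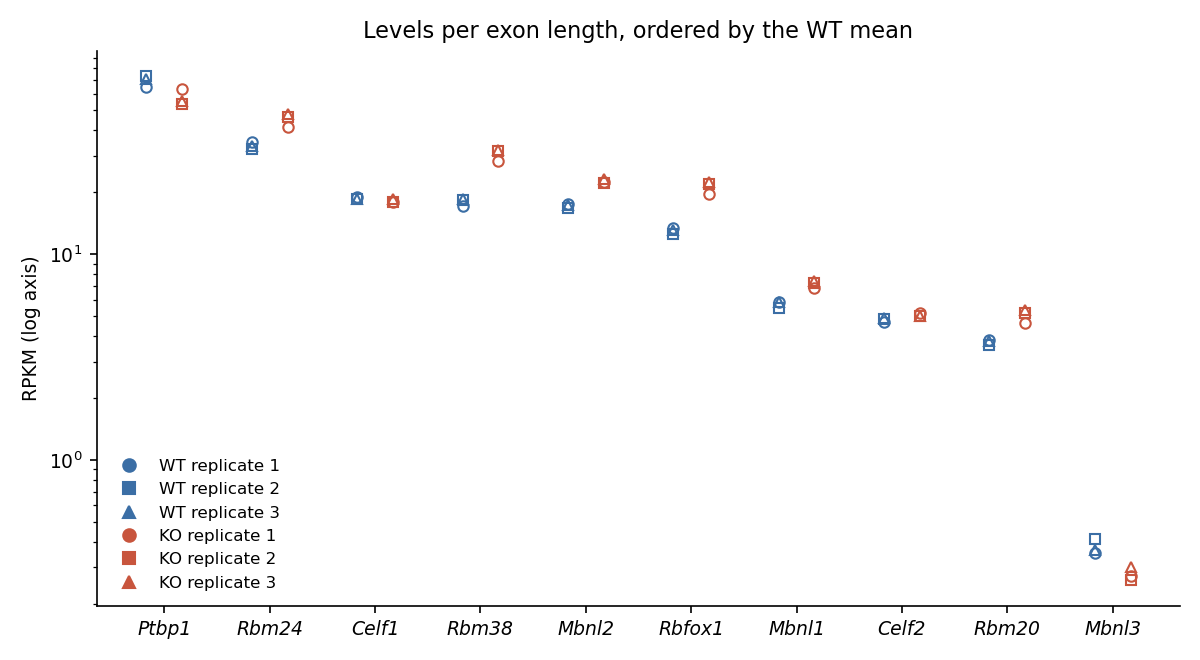
RPKM (log axis) of each regulator in the 3 WT samples (blue) and the 3 KO samples (red), ordered by the WT mean. *Mbnl3* lies below 0.42 RPKM in all samples, and *Rbfox1* passes *Celf1* between WT and KO.

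Ratios between regulators that share or oppose targets do not depend on how libraries were scaled, and 8 pairs were compared with an exact two-sided permutation test. With 3 samples against 3, the smallest possible p is 0.1, and after adjustment over the 8 pairs it is 0.133, so no pair could pass. In 6 of 8 pairs the groups did not overlap. No share over all gene pairs was counted, and of single genes tested 55.9% did not overlap. The 6 are therefore a description. The RPKM ratio of *Mbnl1* to its antagonist *Celf1* was 0.307, 0.296 and 0.315 in WT and 0.381, 0.404 and 0.398 in KO. That of *Mbnl1* to *Mbnl3* was 15.2 ± 1.74 in WT and 25.9 ± 1.88 in KO (SD, n = 3 each). The ratio of *Mbnl2* to *Mbnl3* was 45.9 ± 4.76 in WT and 81.6 ± 4.10 in KO.

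*Mbnl1* and *Mbnl2* kept closer to each other, at 0.332 ± 0.00520 in WT and 0.317 ± 0.0117 in KO, and here the samples overlapped. The ratio of *Rbm24* to *Rbm38* was 1.88 ± 0.148 in WT and 1.47 ± 0.0226 in KO, lower in every KO sample than in any WT sample. *Rbfox1* to *Rbfox2* went from 0.282 ± 0.0101 to 0.456 ± 0.0203 without overlap, and *Celf1* to *Celf2* from 3.90 ± 0.145 to 3.59 ± 0.125, also without overlap. *Ptbp1* to *Ptbp2* went from 9.70 ± 0.938 to 8.13 ± 0.842, and the groups overlapped.

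**Figure D4:**
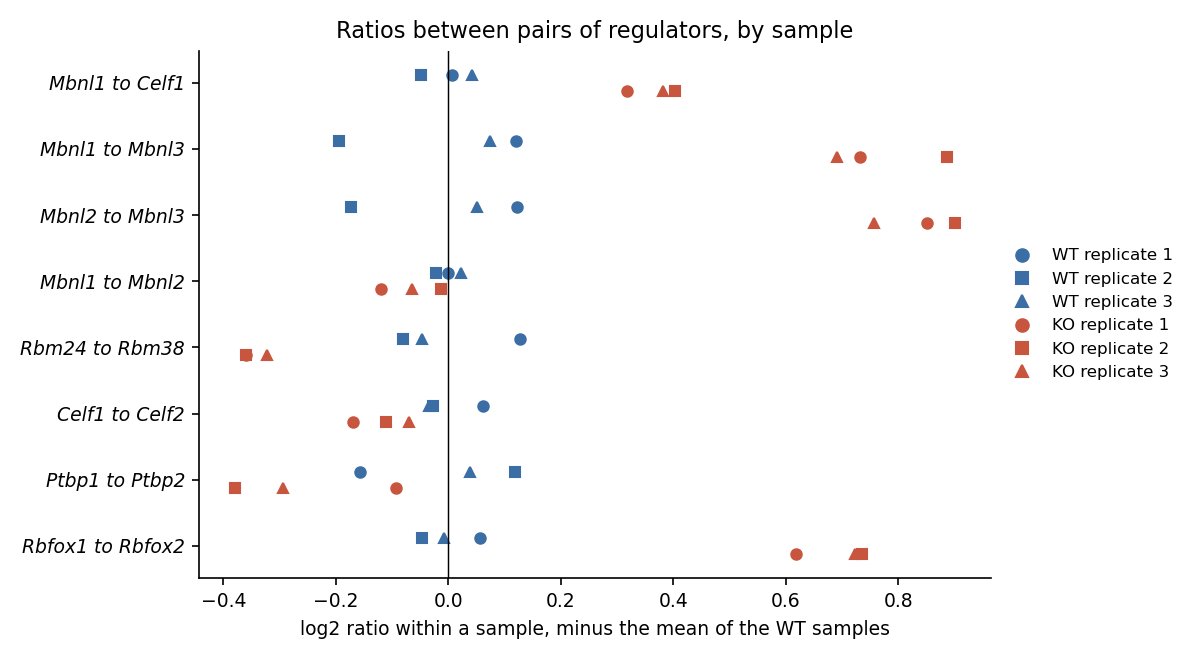
Log2 ratio of each pair of genes in each sample minus the mean of the WT samples (horizontal axis), with WT in blue, KO in red and a marker shape for each replicate number. The KO samples of *Mbnl1* to *Celf1* lie 0.37 above WT on average, and those of *Mbnl1* to *Mbnl2* overlap the WT samples.

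The summed level of the 10 muscle fibre markers was 2.41-fold higher in KO on the CPM scale, against 1.70-fold for *Rbm38*, the regulator that rose most. *Acta1* was the largest part of that sum, at 4513 CPM on average in WT and 12495 CPM in KO. Single markers rose by factors from 1.85 (*Ttn*) to 6.04 (*Actn3*). None of the 10 regulators rose as much as the sum, and the difference between them was not tested.

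Genes most alike in pattern over the 6 samples were sought for the largest rise and the largest fall, by the Euclidean distance of centred log2 CPM among tested genes with a mean of at least 5 CPM (12370 for *Rbm38* and 12371 for *Mbnl3*). Nearest to *Rbm38* were *Ms4a6d* (distance 0.055), a gene of myeloid cells, *Mr1* (0.073), an antigen-presenting molecule, and *Asb2* (0.077), a ubiquitin ligase subunit of muscle. Nearest to *Mbnl3* were *Mark2* (distance 0.097), a kinase of cell polarity, *L1cam* (0.12), an adhesion molecule, and *Ppfibp2* (0.13), a liprin.

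Other relatives of the regulators were counted for comparison. Of 10 such genes 9 were tested, with a median log2 fold change of -0.08. Against 21.9% and 23.1% of all genes tested, 1 passed as higher and 3 as lower. The higher one was *Celf3*, a neuronal gene with only 41 to 121 counts per sample. It had 0.645 ± 0.155 CPM in WT against 1.14 ± 0.190 CPM in KO (SD, n = 3 per group). *Celf5*, also known from brain, was the only lower DEG, with 2.90 ± 0.472 CPM in WT against 1.25 ± 0.138 CPM in KO and a log2 fold change of -1.21 ± 0.14. The other falls were *Ptbp3* and the nuclear matrix gene *Matr3* (log2 fold change -0.14), both named after their values were seen.

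Among 13 other broadly expressed regulators of alternative exons, 12 were tested and none was a DEG by edgeR. Of these, 3 passed as higher and 4 as lower, against 21.9% and 23.1% of all genes tested. At an unadjusted p under 0.05 the counts were also 3 and 4. Their log2 fold changes ran from -0.32 to 0.31. Of 3 epithelial regulators 2 passed as lower and none as higher. *Esrp1* and *Esrp2* fell, with log2 fold changes of -2.82 ± 0.13 and -2.05 ± 0.14. *Esrp1* had 66.8 ± 13.8 CPM in WT against 9.44 ± 0.339 CPM in KO. *Rbm47*, named after its values were seen, had a log2 fold change of -0.18 with an adjusted p of 0.126 in edgeR and did not pass. *Esrp1* and *Esrp2* mark epithelia, and the epidermal markers fell beside them by a factor of 26.3 in their summed level.

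Of 8 neuronal regulators 7 were tested, 2 passed as higher and 3 as lower, against 21.9% and 23.1% of all genes tested. *Srrm3*, *Elavl2* and *Elavl4* were lower DEGs with log2 fold changes of -0.66, -0.60 and -0.68, all with at most 1.10 CPM on average in WT. *Srrm3* had only 16 to 29 counts per sample and an adjusted p of 0.0481 in edgeR, near the threshold. *Elavl4* had 40 to 84 counts per sample. *Nova1* and *Srrm4*, named after their values were seen, rose with log2 fold changes of 0.48 and 0.54.

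General splicing factors were counted next. Among 13 SR protein genes, which promote exon definition, 10 passed as lower and none as higher, with a median log2 fold change of -0.19. Among 23 hnRNP genes, which bind nascent RNA and often repress exons, 13 passed as lower and none as higher, with a median of -0.17. At the adjusted p, 23.1% of all genes tested passed as lower. None of these 36 genes was a DEG by edgeR, DESeq2 or limma-voom. At an unadjusted p under 0.05, for which no share of all genes was counted, 27 were lower. *Ptbp1*, itself also counted as an hnRNP, lay within the range of these genes, which ran from -0.52 to 0.06. Proliferation markers moved the same way, with 5 of 6 lower and a median of -0.19, and their part in this result was not tested.

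**Figure D5:**
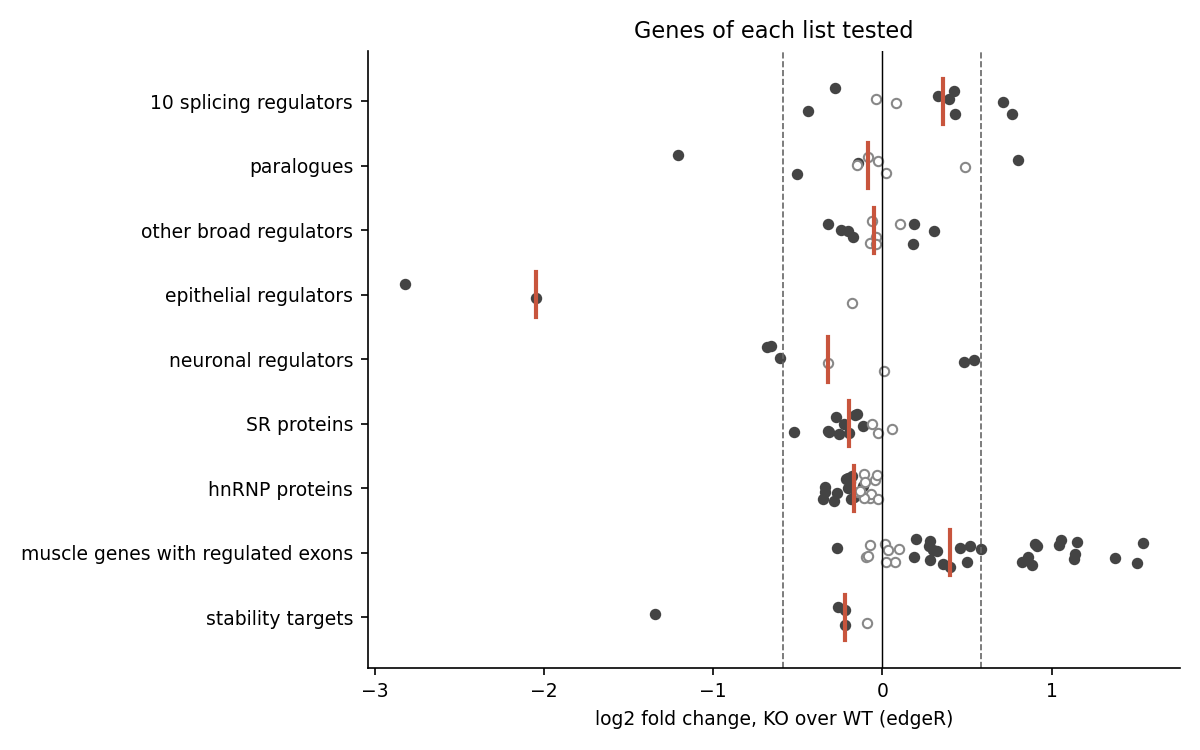
Log2 fold change (KO over WT, edgeR, horizontal axis) of each tested gene in the 10 regulators and in 8 other lists, filled where the adjusted p was under 0.05, with the median of a list as a red bar and dashed lines at a 1.5-fold change. The median is 0.36 for the 10 regulators, -0.19 for SR proteins, -0.17 for hnRNP proteins and 0.40 for muscle genes with regulated exons.

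Genes known for exons that these proteins regulate, here called muscle genes though some are widely expressed, were examined as whole genes. Of 35 such genes 26 passed as higher and 1 as lower, and 13 were higher DEGs, with a median log2 fold change of 0.40. Over all genes tested 21.9% passed as higher and 8.31% were higher DEGs. The largest rises were in *Atp2a1* (log2 fold change 1.54 ± 0.09), the calcium pump of fast fibres, *Trdn* (from 44.1 to 125 CPM), the triad protein triadin, and *Tnnt3* (log2 fold change 1.38 ± 0.11), fast troponin T. *Dtna* (1.15 ± 0.07), *Tpm1* (1.14 ± 0.11) and *Pdlim3* (1.13 ± 0.08) followed, encoding dystrobrevin, tropomyosin and a Z-disc protein. The gene that fell, named after its values were seen, was *Tnnt2*, cardiac troponin T of embryonic muscle, with 302 CPM in WT against 251 CPM in KO and a log2 fold change of -0.27. Many of these genes are expressed in muscle fibres, whose markers rose with them. *Ttn* and *Neb* stand in both lists, so the lists are not separate. Whether exons of these genes were used differently was not measured.

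Transcripts known to be bound by RBM24 or RBM38 outside splicing were also counted. Of 5 such genes 4 passed as lower and none as higher, against 23.1% and 21.9% of all genes tested. The median log2 fold change of the 5 was -0.22. *Trp63*, which is also the defining transcription factor of epidermal basal cells, was the only DEG, at 44.3 ± 6.89 CPM in WT against 17.4 ± 0.505 CPM in KO. The other genes of this list are named after their values were seen. *Myog*, *Myod1* and *Trp53* fell with log2 fold changes of -0.22, -0.22 and -0.26. *Cdkn1a*, the cell cycle inhibitor whose mRNA RBM38 binds, had a log2 fold change of -0.09 and did not pass.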

How the data were processed

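The authors trimmed paired-end reads with Trim Galore 0.6.6, mapped them to mm10 with HISAT2 2.2.1 and counted them per gene with featureCounts 2.0.1. They deposited raw gene counts, without normalization or filter, and the annotation and strand setting are not given in the sources used here. Symbols and exon lengths came from GENCODE M21 by Ensembl identifier (55227 of 56262 identifiers matched), and promoters from RefSeq, whose table held 9 of the 10 regulators. Counts were tested in R 4.3.3 with edgeR 4.0.16 (filterByExpr, TMM factors, quasi-likelihood F-test on genotype), with Benjamini-Hochberg adjustment over 22071 genes. The SE is the absolute log2 fold change divided by the square root of F. CPM and RPKM use TMM-scaled totals. A level of 3 counts lay between 0.0284 and 0.0363 CPM, and covers counting error only. It was not the filter for testing, which was filterByExpr. Exact permutation tests used scipy. The regulators and lists were chosen with earlier results of these data known.

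All 10 regulators are named, with up to 6 DEGs of largest change in each list that holds no markers, 3 nearest genes for the largest rise and fall, and *Synpo2*. Genes are also named as partners in the 8 ratios or for exon bases shared with a regulator, and other names are stated as chosen after their values were seen. No source ties replicate numbers to litters, and samples of equal number deviated together with correlations of only -0.20, -0.13 and 0.047, so they were not paired. Replicates differed by more than sampling noise (chi-square averaged over genes at least 5.17). Alternatives were RLE and upper-quartile factors, library size alone, DESeq2 1.42.0, limma-voom (limma 3.58.1), 2 other filters, a replicate block, the Y-linked share as a covariate, dropping the 10 genes with most counts in each library, 2 other fold thresholds and leaving out each sample. The scripts were tested on simulated counts.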

Additional observations from a re-analysis of the deposited data

How the results depend on the processing

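*Rbfox1* and *Rbm38* were DEGs under all 16 alternative fits, and *Rbm20*, *Rbm24*, *Mbnl1*, *Mbnl2* and *Mbnl3* kept their direction and passed the adjusted p in all 16. *Ptbp1* passed in 15, and without single samples its log2 fold change ran from -0.35 to -0.23. Upper-quartile factors put the median of all genes at 0.064, turned *Celf1* to 0.029 (adjusted p 0.590 in edgeR; range over alternatives 0.0610 to 0.631) and brought *Celf2* past the threshold at 0.146 (adjusted p 0.0143 in edgeR; range 0.0143 to 0.882). In the main fit the median was -0.0041, *Celf1* -0.039 and *Celf2* 0.078, so all of these were higher under upper-quartile factors. That setting changed the library factors alone, and why the factors differ was not tested. Leaving out single samples left 1 to 2 regulators lower at the adjusted p alone (1 without KO replicate 3), 4 to 8 of the other regulators of alternative exons as DEGs against 7 in all (4 without WT replicate 3 and 4 without KO replicate 3), and 0 to 1 SR or hnRNP genes (1 without KO replicate 1). Library size alone gave 1 SR or hnRNP gene. A fold change over 2 left 0 of the 10 regulators higher, 3 other regulators and 8 muscle genes with regulated exons. With no fold threshold, 6 of the 10 were higher and 2 lower, and 18 other regulators, 23 SR or hnRNP genes, 27 muscle genes and 4 stability targets passed, since the threshold alone was removed. The fit with a replicate block gave 2 regulators higher and 0 lower as DEGs, the same as the unpaired fit, and 6 other regulators. It changed no call on the 10 regulators. Ratios between pairs kept their sign without any single sample.

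*Mbnl3* rested on 216 to 338 counts per sample, fewer than any other of the 10 regulators. With 3 samples per group, permutation tests could not go below 0.1.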
